A study of Mus musculus with 12 samples.

Results

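The late phase of the wild-type response to MALP-2 was read from 2 of the 12 arrays of the series, those of wild-type macrophages at 8 h and at 2 h of stimulation, 1 array each. Every gene with a probeset of a single symbol entered, 18194 in all, and 11215 of them were measured, meaning that the higher of the 8 h and 2 h values reached a floor of 3.83 log2, the median of all values. The cells were peritoneal macrophages taken from mice injected with thioglycollate, an irritant that draws monocyte-derived macrophages into the cavity, and were given MALP-2 at 100 ng/ml. Wild-type arrays at 0 h (without MALP-2) and 4 h were used beside them. The series holds the same 4 times for macrophages of IRAK2 knockout mice and of mice without both kinases, IRAK1 and IRAK2 (the double knockout). The sources used here do not give strain, age or whether mice were pooled.

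MALP-2 is a mycoplasma lipopeptide recognised by the pair TLR2 and TLR6, which signal through MyD88 and the IRAK kinases to NF-kB and the MAP kinases. Some target genes are read at once by factors already present in the cell, and many of these transcripts are short-lived and are removed by decay factors that the same response induces. Others need new transcription factors, remodelled chromatin or secreted mediators such as interferon, and their transcripts build up over hours.

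All values are log2 levels, so a difference of 1 is a 2-fold change, and 4 levels in a row are those at 0, 2, 4 and 8 h. With 1 array per time there is no replicate error and no test: "higher" and "lower" say how 2 arrays differed. Levels are compared between times for 1 gene, never between genes, since probesets bind with different strength. Where averaging all probesets of a gene in place of the brightest moved its difference by over 1.5-fold, that average stands beside it as the probeset mean, or, for a few genes, the value without probesets that may cross-hybridise. These are bulk RNA samples, in which more cells of a type and more RNA per cell cannot be told apart.

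At 8 h, 475 genes (4.24% of those measured) were at least 2-fold higher than at 2 h and 311 (2.77%) were at least 2-fold lower. At least 4-fold, 42 (0.374%) were higher and 50 (0.446%) lower. At least 8-fold, 11 (0.0981%) were higher and 8 (0.0713%) lower. The median difference of all measured genes was 0.10, its quartiles were -0.17 and 0.38, and 59.9% of genes read higher at 8 h. The bound of 2-fold cuts through a continuous range: 167 genes lay just inside it, at differences of 1.0 to 1.1 in either direction, and 236 just outside, at 0.9 to 1.0. In 40 of the 786 changed genes the lower of the 2 levels was under the floor, so that the size is a lower limit.

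The cells carried macrophage transcripts at both times. Csf1r, the receptor of the growth factor macrophages live on, had 13.06 at 8 h and 12.82 at 2 h. The lysozyme gene Lyz2 had 13.04 at 8 h and 13.12 at 2 h. Of 24 macrophage identity genes, 22 reached the floor at 8 h and 23 at 2 h. Their summed log2 level was 202.6 at 8 h against 205.9 at 2 h, and 8 of the 23 measured read higher at 8 h. No T or NK cell marker of 11 reached the floor at 8 h, against 1 at 2 h. Of 11 neutrophil markers, 7 reached it at 8 h and 5 at 2 h, and their summed log2 level was 59.5 at 8 h against 54.5 at 2 h. The summed levels were 36.9 at 8 h and 34.0 at 2 h for 8 B cell markers, 41.2 and 41.9 at the same times for 11 eosinophil and mast cell markers, 41.7 and 42.5 for 9 dendritic cell markers and 75.6 and 72.6 for 13 mesothelial and stromal markers. Of those measured, the B cell genes Ighm (1.18; 0.16 without probesets that may cross-hybridise) and Ms4a1 (1.01) were at least 2-fold higher at 8 h, and Siglecf (-1.02) and the dendritic cell factor Zbtb46 (-1.52, probeset mean -0.78) lower. Collagen transcripts were present at both times, with Col1a1 at 10.61 at 8 h and 10.48 at 2 h. The 8 h and 2 h arrays had a correlation of 0.980 over probesets and medians 0.0085 apart. The actin probesets, a sign of RNA quality, differed by -3.58 (5′ minus 3′) at 8 h and by -3.26 at 2 h, and those of Gapdh by -3.64 at 8 h and -3.84 at 2 h. Irak1 read 8.48 at both times, while Irak2 read 5.77 at 8 h and 6.69 at 2 h.

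Each changed gene was placed by what it had done by 2 h. Among the 475 higher genes, 23 had already been induced at least 2-fold at 2 h and kept rising, 243 had been within 2-fold of their 0 h level and rose late, and 209 had been at least 2-fold below 0 h and recovered. Among the 311 lower genes, 139 had been induced and decayed, 147 fell late, and 25 had been below 0 h and kept falling. A further 450 genes induced at 2 h stayed within 2-fold of that level at 8 h, and 608 genes repressed at 2 h stayed likewise. Of all measured genes, 612 (5.46%) exceeded their 0 h level at least 2-fold at 2 h and 842 (7.51%) fell short of it as much. At 8 h the counts against 0 h were 574 (5.12%) above and 616 (5.49%) below. The 2 h array enters both differences, so an error in 1 of its values moves a gene toward decay or recovery.

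**Figure D1:**
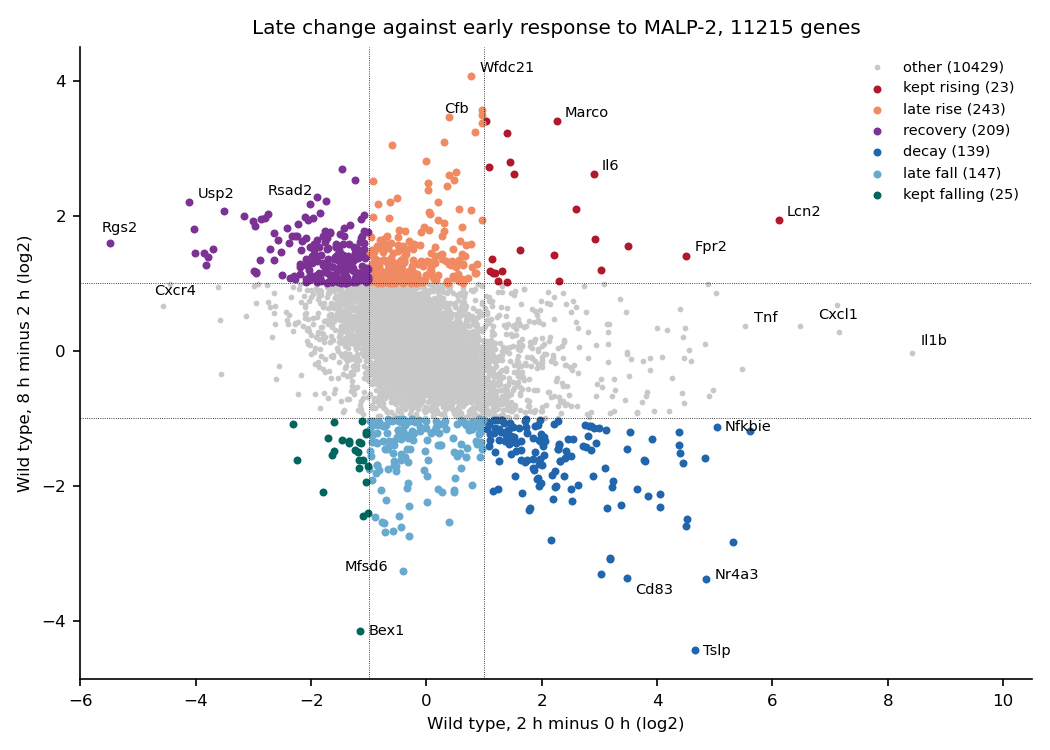
Each point is 1 of the 11215 measured genes in wild-type macrophages: the horizontal axis is the 2 h minus 0 h difference (log2) and the vertical axis the 8 h minus 2 h difference (log2). Dotted lines mark 2-fold, colours mark the 6 time patterns with their gene counts in brackets, and Il1b and Tnf lie far to the right near a late difference of 0, while Tslp (-4.44) and Wfdc21 (4.07) mark the lower and upper ends.

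The 4 h array, which the patterns did not use, mostly fell in between. Its value lay between those at 2 h and 8 h for all 23 genes that kept rising, 218 of 243 late risers, 192 of 209 recovering genes, 130 of 139 decaying genes, 132 of 147 late fallers and 18 of 25 genes that kept falling. Of the 9371 genes that changed by less than 2-fold from 0 to 2 h and from 2 to 8 h, 4550 had it in between. By 4 h the median gene had made 50.3% of its 2 h to 8 h change in the kept-rising pattern, 63.2% in the late rise, 72.3% in the recovery, 63.8% in the decay, 61.0% in the late fall and 81.5% in the kept-falling pattern. The same median was 61.7% for the 9371 genes with little change, 71.4% for sustained-high and 74.9% for sustained-low genes. Between 8 h and 4 h alone, 70 genes (0.624%) were at least 2-fold higher and 58 (0.517%) lower.

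**Figure D2:**
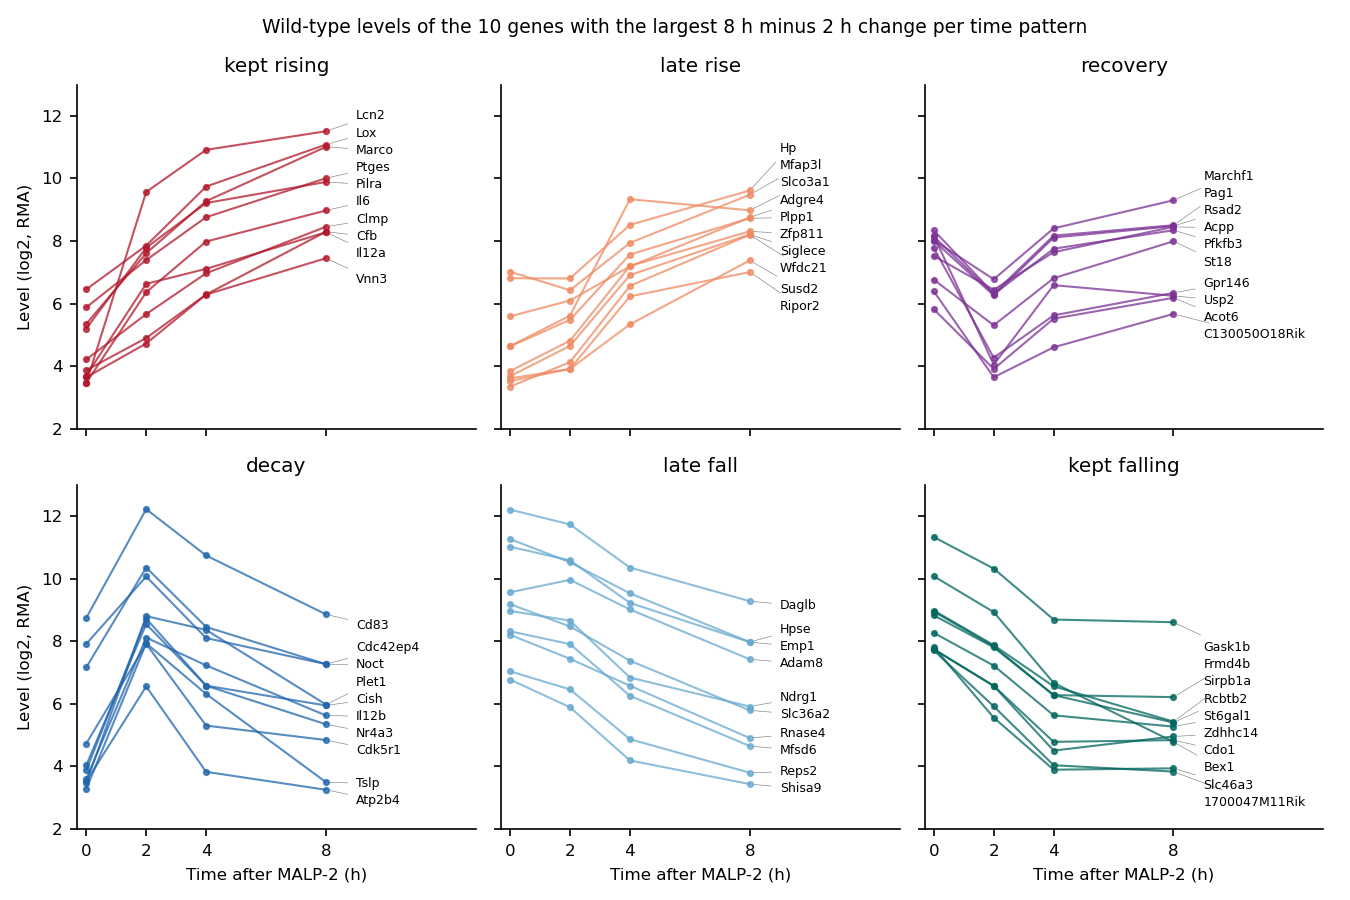
Wild-type log2 levels against time after MALP-2 (0, 2, 4 and 8 h, 1 array each) of the 10 genes with the largest difference between 8 h and 2 h in each of the 6 time patterns. Each line is 1 gene, named at its end, and the 10 kept-rising genes climb at every step from 0 to 8 h, while the 10 decaying genes peak at 2 h.

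The 23 genes that kept rising were the smallest of the higher groups. The rule of the pattern places all of them at least 4-fold above 0 h at 8 h, and their median was 4.13 log2 above it. They held scavenger and pattern-recognition receptors, secreted defence proteins, cytokines and enzymes. Marco, a scavenger receptor that binds bacteria, read 5.35, 7.61, 9.27 and 11.01, a difference of 3.40 between 8 h and 2 h. Cfb, factor B of the alternative complement pathway, read 3.87, 4.90, 6.29 and 8.30 (3.40). Lox, the lysyl oxidase that cross-links collagen, read 6.45, 7.85, 9.74 and 11.08 (3.23, probeset mean 2.00). All 3 gained more than 1 log2 in each interval from 0 h on. Clmp, an adhesion molecule of tight junctions, read 4.21, 5.66, 6.97 and 8.46 (2.79). Vnn3, of the vanin family of pantetheine-cleaving enzymes, read 3.65, 4.72, 6.29 and 7.45 (2.73). Ptges, which makes prostaglandin E, read 5.88, 7.39, 8.76 and 10.01 (2.61).

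Cytokine transcripts of the same pattern were those of interleukin-6 and of the IL-12 family. Il6 read 3.47, 6.36, 7.98 and 8.98, with a difference of 2.61. Il12a, which encodes the p35 chain of IL-12, read 3.70, 6.63, 7.11 and 8.28 (1.65). Ebi3, a chain that pairs with p28 or p35, read 7.03, 8.17, 8.86 and 9.54 (1.37). Their 8 h values were the highest of the 4 times in each case. Lcn2, a siderophore-binding protein, had most of its increase by 2 h and still gained: 3.46, 9.57, 10.91 and 11.51 (1.94). Fpr2, a formyl peptide receptor, did likewise, with 6.60 at 0 h, 11.10 at 2 h and 12.51 at 8 h (1.41). Pilra and Pilrb1, neighbouring genes for an inhibitory and an activating receptor, read 5.20, 7.79, 9.21 and 9.89 (2.10) and 5.92, 9.41, 10.26 and 10.97 (1.56). The other members, named after their values were seen, were Osbpl3, AW112010, Lmo4, Mcemp1, Trip13, Acp5, Gimap9, Ier3, Gbp2 and Rnf144a, with differences between 1.50 for Osbpl3 and 1.03 for Rnf144a.

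CpG dinucleotides are frequent at the promoters of broadly expressed genes and sparse at many inducible ones, and were counted here. Of the 250 bases before the RefSeq start, 1 start per gene, 9132 of the 11215 measured genes had a sequence (build GRCm38.p6). The kept-rising genes had a median of 3 CpG dinucleotides there and 16 of 20 had fewer than 10, whereas all measured genes had a median of 16 and 26.3% had fewer than 10. The kept-falling genes had a median of 5, with 14 of 19 under 10. Medians were 13.5 for the late rise (194 genes), 15 for the recovery (172 genes), 15 for the decay (111 genes) and 13 for the late fall (116 genes). The 2 patterns whose changes from 0 to 2 h and from 2 to 8 h had the same direction had the lowest medians. At 8 h, 1.7% of all measured genes exceeded 0 h at least 4-fold and 1.03% fell short of it as much. Those of the sustained-high pattern among them had a median of 10 (100 genes), and those of the sustained-low pattern a median of 9 (26 genes).

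**Figure D3:**
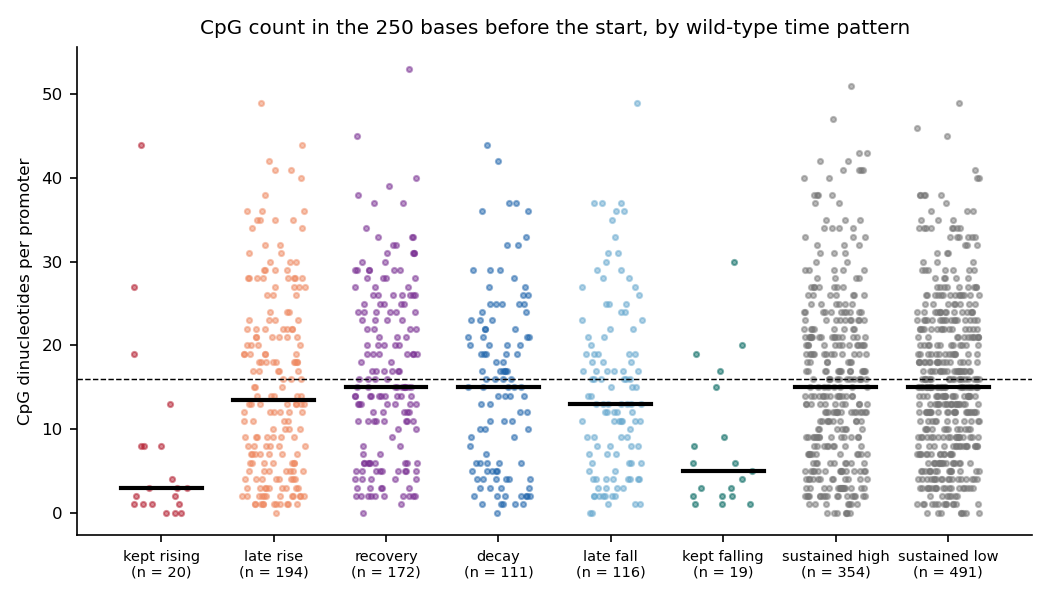
CpG dinucleotides in the 250 bases before the RefSeq start (vertical axis, count per promoter) for genes of each wild-type time pattern, with the number of promoters in brackets. Each point is 1 gene, bars are medians and the dashed line is the median of all measured genes (16): the bars of the kept-rising (3) and kept-falling (5) genes lie lowest.

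The promoters below show this in 4 of the kept-rising genes and in Nr4a3, a decaying gene, for contrast. They were picked after their motifs were seen. Motifs were searched on both strands: the NF-kB consensus, TTGCNNAA for C/EBP, TGANTCA for AP-1, the interferon-stimulated response element (ISRE), TGACG for the half-site of the cyclic AMP response element, CCGGAAG for ETS factors and TATAAA for the TATA box. Capitals mark matches of the first 5 of these motifs, none of which overlap in the sequences shown, and the sequences are those of RefSeq in build GRCm38.p6, written 5′ to 3′ along the gene.
Il6, chr5:30012864-30013113, plus strand: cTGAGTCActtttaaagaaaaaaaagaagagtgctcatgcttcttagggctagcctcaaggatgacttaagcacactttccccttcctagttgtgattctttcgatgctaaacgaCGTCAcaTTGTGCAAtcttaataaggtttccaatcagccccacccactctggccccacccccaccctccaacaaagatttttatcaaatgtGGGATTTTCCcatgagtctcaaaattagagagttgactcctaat
Lcn2, chr2:32387740-32387989, minus strand: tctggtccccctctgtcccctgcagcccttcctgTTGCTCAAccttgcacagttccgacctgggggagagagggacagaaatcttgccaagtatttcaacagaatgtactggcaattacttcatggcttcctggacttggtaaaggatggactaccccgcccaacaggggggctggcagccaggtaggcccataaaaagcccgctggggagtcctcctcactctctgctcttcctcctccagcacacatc
Pilra, chr5:137836279-137836528, minus strand: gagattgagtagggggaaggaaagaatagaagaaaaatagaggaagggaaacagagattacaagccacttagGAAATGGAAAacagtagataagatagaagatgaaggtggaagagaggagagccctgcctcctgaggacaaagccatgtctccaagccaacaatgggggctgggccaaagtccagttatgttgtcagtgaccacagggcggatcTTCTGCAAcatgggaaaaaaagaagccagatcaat
Ebi3, chr17:55952373-55952622, plus strand: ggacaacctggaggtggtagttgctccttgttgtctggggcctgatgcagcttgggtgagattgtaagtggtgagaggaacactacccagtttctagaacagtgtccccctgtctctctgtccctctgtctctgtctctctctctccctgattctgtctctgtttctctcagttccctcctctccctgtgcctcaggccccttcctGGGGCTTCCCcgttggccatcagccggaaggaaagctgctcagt
Nr4a3, chr4:48045055-48045304, plus strand: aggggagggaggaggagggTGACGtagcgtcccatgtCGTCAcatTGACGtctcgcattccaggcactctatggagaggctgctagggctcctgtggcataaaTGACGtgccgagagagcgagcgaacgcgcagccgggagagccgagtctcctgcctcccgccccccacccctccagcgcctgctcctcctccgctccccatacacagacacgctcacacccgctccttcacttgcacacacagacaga

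In Il6 the NF-kB match begins 44 bases before the start, the C/EBP match 128, the half-site 135 and the AP-1 match 249. The Ebi3 sequence has its NF-kB match at the same 44 bases. Lcn2 holds a C/EBP match 216 bases before the start, and Pilra holds one at 35 with an ISRE match at 178. The Nr4a3 promoter holds 4 half-sites, at 231, 213, 205 and 147 bases, a short motif that 27.3% of all promoters hold at least once. C/EBP matches were in 5 of 20 kept-rising and 3 of 19 kept-falling promoters. They were in 13.4% of late-rise, 5.41% of decay, 5.17% of late-fall and 7.40% of all promoters. NF-kB matches were in 4 of 20 kept-rising and 3 of 19 kept-falling promoters, and in 8.11% of decay promoters. They were in 7.76% of late-fall, 3.61% of late-rise and 4.43% of all promoters. AP-1 matches were in 2 of 20 kept-rising, 4 of 19 kept-falling, 11.2% of late-fall and 4.30% of all promoters, and ISRE matches in 3 of 20 kept-rising and 2.66% of all. The ETS motif was in 3 of 20 kept-rising, 6.31% of decay and 14.1% of all promoters, and the TATA box in 1 of 20 kept-rising and 6.44% of all. Sustained-high genes at least 4-fold above 0 h at 8 h had 100 promoters. Of these, 14% held a C/EBP, 12% an NF-kB, 7% an AP-1 and 4% an ISRE match, 20% the TATA box and 2% the ETS motif. All of these are matches of letters in a window, with no measure of binding, and the counts of the 2 small patterns are of a few genes.

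The 243 genes of the late rise had been within 2-fold of 0 h at 2 h. At 8 h, 105 of them were at least 2-fold above 0 h, and the other 138 were within 2-fold of it. Wfdc21, a whey acidic protein family gene, had the largest rise of all measured genes, 4.07, and read 3.35, 4.13, 6.56 and 8.20. Siglece, an inhibitory receptor for sialic acids, read 3.68, 4.65, 6.91 and 8.21 (3.56). Zfp811, a zinc finger gene, read 3.84, 4.81, 7.20 and 8.31 (3.50, probeset mean 2.09). Siglece and Zfp811 were nearly 2-fold above 0 h at 2 h, just outside the bound for the kept-rising pattern. Susd2, a sushi domain gene, read 3.53, 3.91, 5.34 and 7.38 (3.47), with most of its gain after 4 h. Slco3a1, an organic anion transporter, read 4.64, 5.61, 9.33 and 8.98 (3.37) and was highest at 4 h. Plpp1, a lipid phosphatase, read 4.63, 5.48, 7.57 and 8.73 (3.24, probeset mean 2.15), and Ripor2 read 3.61, 3.91, 6.23 and 7.01 (3.09, probeset mean 1.33). Mfap3l dipped first, with 7.02, 6.43, 7.94 and 9.48 (3.05, probeset mean 1.85). Adgre4, an adhesion receptor of macrophages, read 5.59, 6.10, 7.19 and 8.75 (2.65, probeset mean 1.62).

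Acute-phase and other secondary-response genes were often higher at 8 h. Of 26 measured on a list of 30, 10 (38.5%) were at least 2-fold higher at 8 h and 2 (7.69%) lower, with a median of 0.59 against 0.10 for all genes. Haptoglobin (Hp), which binds free haemoglobin, read 6.81, 6.80, 8.51 and 9.61 (2.81). Ceruloplasmin (Cp), a copper-carrying ferroxidase, read 6.19, 6.67, 7.84 and 9.20 (2.53, probeset mean 1.22). Neither had moved by more than 0.5 log2 at 2 h. Slpi, a protease inhibitor, read 9.47, 9.53, 10.29 and 11.56 (2.03), and Saa3, an acute-phase serum amyloid, read 11.27, 11.83, 12.53 and 12.96 (1.14). Mmp9, a gelatinase, read 5.59, 6.37, 7.32 and 8.45 (2.09). By contrast Mmp13, a collagenase, was lower at 8 h, with 5.02, 8.50, 8.02 and 7.05 (-1.45), and so was Thbs1, thrombospondin, with 8.48, 9.41, 8.64 and 8.26 (-1.15).

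Several of these products are also made by neutrophils, and Mmp9 stands on the list of neutrophil markers. Beside them, the neutrophil marker Camp read 5.98 at 8 h and 4.65 at 2 h, Csf3r read 7.37 at 8 h and 6.59 at 2 h, and S100a8 read 11.03 at 8 h and 10.67 at 2 h. S100a9 (4.15 at 8 h, 3.63 at 2 h) and the granule gene Ltf (3.86 at 8 h, 3.47 at 2 h) were above the floor at 8 h only. The granule genes Mpo (3.14 at 8 h, 3.47 at 2 h), Elane (3.68 at 8 h, 3.24 at 2 h) and Ngp (3.48 at 8 h, 3.48 at 2 h) and the receptor gene Cxcr2 (3.41 at 8 h, 3.23 at 2 h) were under the floor at both times. Mmp8 was lower at 8 h, 4.98 against 5.73 at 2 h.

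Cytokines and chemokines differed from each other in the late phase. Of 20 cytokine genes measured, 3 were at least 2-fold higher (the kept-rising Il6, Il12a and Ebi3) and 4 lower, and the median was -0.07. Il12b, whose p40 product pairs with p35 to form IL-12, decayed while Il12a rose: it read 3.60, 8.12, 7.23 and 5.63, a difference of -2.49. Lif, a cytokine of the IL-6 family, read 3.20, 7.25, 5.95 and 4.94 (-2.31, probeset mean -1.19). Il15, which sustains NK cells, read 5.95, 6.44, 4.52 and 4.55 (-1.89) and ended below its 0 h level. Tnfsf9, the ligand of 4-1BB, read 3.71, 9.31, 8.32 and 8.13 (-1.18) and remained far above 0 h. Il18 and Inhba, at 0.96 and 0.99, lay just short of 2-fold, Inhba with a probeset mean of 0.35. None of 21 measured chemokine genes differed by 2-fold between 8 h and 2 h, and their median was 0.30. Among 8 chemokine and formyl peptide receptor genes, Fpr2 alone did.

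Among inflammatory transcripts, several held the level they had at 2 h. Il1b, interleukin-1 beta, read 12.29 at 8 h and 12.33 at 2 h, and 3.90 at 0 h. The neutrophil-attracting chemokine genes Cxcl1, Cxcl2 and Cxcl3 had differences of 0.28, 0.37 and 0.68, and Tnf had 0.36. Of the genes sustained low, Cxcr4, the receptor for CXCL12, read 11.74, 7.17, 7.65 and 7.83, and Lpar6, a lysophosphatidic acid receptor, read 9.89, 5.44, 6.80 and 6.43. Both stayed more than 3 log2 below 0 h at 8 h.

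Decay brought 99 of 139 genes back to within 2-fold of 0 h by 8 h, and 40 were still at least 2-fold above it. Tslp, an epithelial-type cytokine that acts on dendritic cells, had the largest fall of all measured genes, -4.44: it read 3.29, 7.94, 6.32 and 3.50, the last under the floor. Nr4a3, an orphan nuclear receptor of the immediate-early class, read 3.88, 8.73, 6.58 and 5.35 (-3.38, probeset mean -1.14). Cd83, a surface protein of activated antigen-presenting cells, read 8.75, 12.22, 10.74 and 8.86 (-3.36), so that 8 h and 0 h differed by 0.11. Atp2b4, a plasma membrane calcium pump, read 3.52, 6.56, 3.83 and 3.26 (-3.30), and most of its fall was over by 4 h. Noct, a circadian phosphatase, read 7.17, 10.36, 8.46 and 7.27 (-3.09). Cdk5r1, the activator of the kinase Cdk5, read 4.73, 7.92, 5.31 and 4.85 (-3.07, probeset mean -1.35). Plet1, a surface protein of epithelial progenitors, decayed mostly after 4 h, with 3.49, 8.81, 8.36 and 5.98 (-2.83, probeset mean -1.56), and ended 2.49 above 0 h.

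NF-kB subunits and feedback regulators were partly lower at 8 h. All 10 measured genes for NF-kB subunits and I-kappa-B proteins read lower at 8 h than at 2 h, and 4 of them (40%, beside 2.77% of all genes) by at least 2-fold, with a range of -1.86 to -0.15 and a median of -0.95. Rel, the c-Rel subunit, read 4.37, 7.26, 6.40 and 5.40 (-1.86). Nfkbie, the inhibitor I-kappa-B epsilon, read 5.69, 10.72, 9.60 and 9.59 (-1.13), and Bcl3, a nuclear I-kappa-B protein, read 5.84, 8.70, 7.23 and 7.58 (-1.12). Nfkbib, I-kappa-B beta, read 4.99, 7.75, 6.82 and 6.65 (-1.09). All 4 were still at least 1 log2 above 0 h at 8 h. The other 6 were within 2-fold of 2 h, among them Nfkbia, the main I-kappa-B protein, at -0.26. Of 19 inhibitors of kinase and cytokine signals, 2 were lower, 1 was higher and 16 were within 2-fold, such as Tnfaip3 (-0.49), Socs3 (-0.28) and Irak3 (0.71). Cish, of the SOCS family, read 4.04, 8.55, 6.58 and 5.95 (-2.60) and the MAP kinase phosphatase Dusp2 read 4.12, 6.11, 5.40 and 4.86 (-1.26). Dusp6, a phosphatase of ERK, went the other way, with 7.54, 6.86, 8.01 and 8.56 (1.70). None of 13 factors of cytokine messenger decay differed by 2-fold, and the nearest were Rc3h1 (-0.98) and Zc3h12a (-0.92), both of which repress cytokine transcripts.

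Immediate-early transcription factors moved in both directions. Of 24 measured, 4 (16.7%) were at least 2-fold higher at 8 h and 5 (20.8%) lower, beside 4.24% and 2.77% of all genes. The lower ones beside Nr4a3 were Egr3, with 4.72, 6.37, 4.91 and 4.27 (-2.10, probeset mean -0.86), Myc, with 4.44, 6.90, 6.61 and 5.59 (-1.31), Btg2 (-1.16) and Maff (-1.15). Jun, a subunit of AP-1, had been below 0 h at 2 h and returned: it read 10.12, 8.20, 9.29 and 9.54 (1.34). Atf3, a stress-induced repressor, read 10.20, 8.19, 9.73 and 9.31 (1.12), and Fos, the partner of Jun, read 8.41, 6.22, 7.66 and 7.22 (0.99). Nr4a2 was higher by 1.03 (probeset mean 0.32), and Ier3, which had been induced at 2 h, by 1.03.

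Growth-arrest genes were in part lower. Of 20 FoxO and p53 targets and arrest genes, 5 (25%, beside 2.77% of all genes) were lower, 1 was higher and 14 were within 2-fold. Cdkn1a, the cyclin kinase inhibitor p21, read 8.84, 11.03, 9.96 and 8.84 (-2.19). Gadd45b, a stress sensor, read 8.65, 10.39, 9.33 and 8.78 (-1.61). Both were close to their 0 h level at 8 h.

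**Figure D4:**
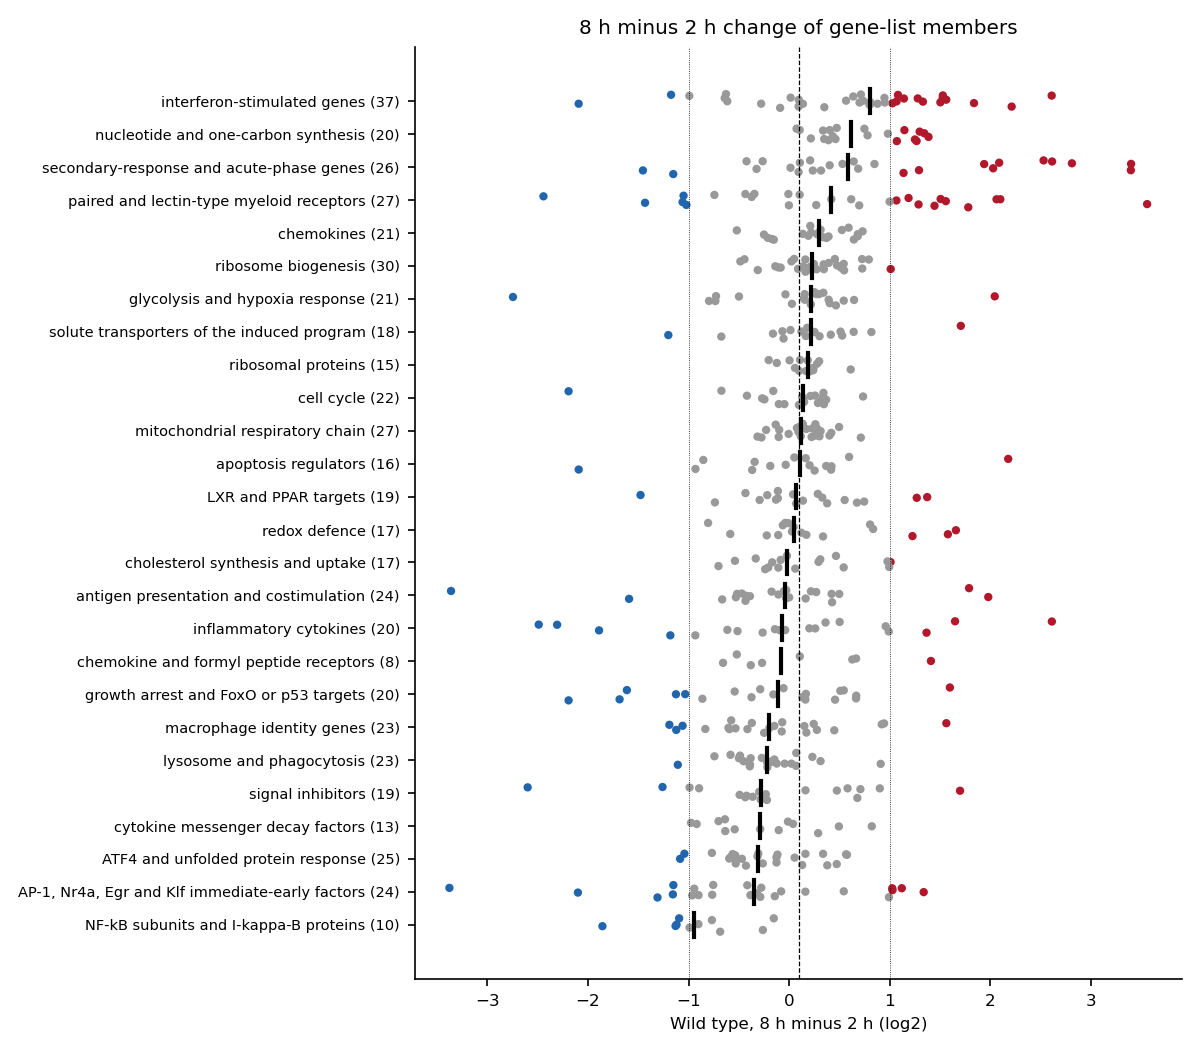
The horizontal axis gives the wild-type 8 h minus 2 h difference (log2) of each measured member of 26 gene lists, listed from the highest to the lowest median with the number measured in brackets. Red points are at least 2-fold higher at 8 h, blue points at least 2-fold lower, black bars are list medians and the dashed line is the median of all measured genes (0.10): interferon-stimulated genes (0.80) are at the top and NF-kB subunits and I-kappa-B proteins (-0.95) at the bottom.

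Interferon-stimulated genes were the list with the highest median, 0.80, against 0.10 for all genes. Of 37 measured, 13 (35.1%) were at least 2-fold higher at 8 h and 2 (5.41%) lower. Ifit1, which blocks viral messenger translation, read 4.92, 5.32, 7.33 and 7.93 (2.61). Rsad2, the antiviral enzyme viperin, had been below 0 h at 2 h and read 8.01, 6.26, 8.11 and 8.48 (2.21, probeset mean 1.38). Gbp6, a GTPase that attacks microbial vacuoles, read 4.97, 5.58, 6.72 and 7.42 (1.84). Oasl1 and Oasl2, neighbouring genes of the oligoadenylate synthetase family, had differences of 1.56 and 1.53, and Xaf1, a pro-apoptotic gene, had 1.53. Within this list, then, some members went past 0 h and others came back to it. Irf8, a factor of macrophage identity, read 8.73, 6.01, 7.28 and 7.52 (1.50) and was still more than 1 log2 below 0 h. The 2 lower members were the Schlafen genes Slfn1, with 5.34, 5.81, 4.80 and 3.72 (-2.09, probeset mean -0.97), and its neighbour Slfn2, with 7.14, 10.25, 9.55 and 9.08 (-1.17).

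Recovery took 181 of 209 genes back to within 2-fold of 0 h at 8 h, 26 remained at least 2-fold below and 2 went at least 2-fold above. Both that overshot were among the 10 largest. St18, a zinc finger factor, read 6.76, 5.31, 6.81 and 7.99 (2.68, probeset mean 1.70), and Marchf1, a ubiquitin ligase that removes MHC class II from the surface, read 8.02, 6.78, 8.40 and 9.30 (2.52, probeset mean 1.79). Usp2, a deubiquitinase, had fallen the furthest at 2 h among these 10 genes and did not return fully. It read 8.16, 4.05, 6.59 and 6.25 (2.20, probeset mean 1.28). Gpr146, an orphan receptor, read 7.78, 4.27, 5.62 and 6.34 (2.07, probeset mean 0.66), and its neighbour C130050O18Rik read 6.39, 3.65, 4.60 and 5.67 (2.02). Pfkfb3, which makes the activator of phosphofructokinase, was back at its 0 h level, with 8.14, 6.30, 7.75 and 8.34 (2.04, probeset mean 1.06), as was Pag1, a membrane adaptor of Csk, with 8.34, 6.33, 8.17 and 8.50 (2.18, probeset mean 0.69). Acot6, an acyl-CoA thioesterase, read 5.82, 3.91, 5.52 and 6.19 (2.27, probeset mean 1.19), and Acpp, an acid phosphatase, read 7.52, 6.44, 7.64 and 8.45 (2.01, probeset mean 1.05). Rgs2, a brake on G protein signals, had regained only part of its loss, with 10.48, 4.99, 6.08 and 6.59 (1.60, probeset mean 0.75). Slc30a1, the zinc exporter, read 10.34, 8.09, 9.07 and 9.80 (1.71).

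Some metabolic genes were higher at 8 h. A list of purine, pyrimidine and folate enzymes was drawn up after values were seen. All 20 measured genes of it read higher at 8 h, 7 (35%) by at least 2-fold, with a median of 0.61. Of all measured genes, 59.9% read higher at 8 h and 4.24% by at least 2-fold, with a median of 0.10. Cad, which starts pyrimidine synthesis, read 6.13, 5.74, 6.60 and 7.12 (1.39, probeset mean 0.80). Mthfd1, which carries one-carbon units on folate, read 8.78, 8.04, 8.85 and 9.38 (1.34), and Pfas, of purine synthesis, read 8.09, 7.43, 8.71 and 8.73 (1.30). In these 3 the 2 h level was the lowest of the 4 times. Redox defence had 3 of 17 genes (17.6%) higher: the haem oxygenase Hmox1, with 9.71, 8.98, 9.93 and 10.64 (1.66), and the glutathione synthesis genes Gclm (1.58) and Gclc (1.23). The other 14 were within 2-fold, and the median of this list was 0.04. The median of the LXR and PPAR targets was 0.07. The desaturases Scd2 (1.37) and Scd1 (1.27, probeset mean 0.68) were the higher genes of 19 LXR and PPAR targets, and the fatty acid carrier Fabp4 was the lower one, with 12.02, 10.41, 8.85 and 8.94 (-1.48). The cholesterol synthesis enzymes nearest the bound were highest at 4 h: of 17 measured, 1 was at least 2-fold higher, Hsd17b7 (1.01; 0.12 without probesets that may cross-hybridise), and Lss (0.99) and Mvd (0.98) fell just short.

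The housekeeping lists moved little. No gene of 15 ribosomal proteins or 27 respiratory chain subunits differed by 2-fold, and their medians were 0.19 and 0.12. Of 30 ribosome biogenesis genes 1 was higher, Polr1a (1.01), with a median of 0.22. Glycolysis and hypoxia genes had 1 of 21 higher and 1 lower, transporters of the induced programme 1 of 18 each way, and apoptosis regulators 1 of 16 each way. In that list Bcl2, which protects from apoptosis, read 5.98, 5.14, 7.20 and 7.31 (2.18, probeset mean 0.80), and Bcl2l11, the pro-apoptotic Bim, read 9.65, 9.93, 8.84 and 7.84 (-2.09). Of 25 ATF4 and unfolded protein response genes, Herpud1 (-1.08) and Trib3 (-1.04; -0.14 without probesets that may cross-hybridise) were lower. Cell cycle genes had 1 of 22 lower, which was Cdkn1a.

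The late-fall genes had been within 2-fold of 0 h at 2 h. Of these 147 genes, 111 were at least 2-fold below 0 h at 8 h and 36 were within 2-fold of it. Mfsd6, a membrane transport protein of the major facilitator family, read 8.32, 7.91, 6.26 and 4.65 (-3.26, probeset mean -2.12). Slc36a2, an amino acid transporter, read 9.19, 8.47, 7.38 and 5.79 (-2.68), and Reps2, an endocytosis adaptor, read 7.04, 6.46, 4.87 and 3.80 (-2.66, probeset mean -1.51). All 3 were lower at each later time. Emp1, an epithelial membrane protein, read 11.02, 10.58, 9.23 and 7.97 (-2.61, probeset mean -1.19). Hpse, the heparanase that cleaves heparan sulfate, read 11.27, 10.53, 9.53 and 7.98 (-2.55). Adam8, a membrane metalloprotease, read 9.56, 9.96, 9.02 and 7.43 (-2.54). Rnase4, a secreted ribonuclease, read 8.21, 7.44, 6.58 and 4.91 (-2.53), and Daglb, which makes the endocannabinoid arachidonoylglycerol, read 12.21, 11.73, 10.36 and 9.28 (-2.45). For Ndrg1 (-2.75) and Shisa9 (-2.45) the size rests on the probeset: without those that may cross-hybridise, the differences were -0.86 and -0.33.

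The 25 genes that kept falling were, by the rule of the pattern, all at least 4-fold below 0 h at 8 h. Bex1, a small adaptor-like protein, had the largest fall, -4.15, and read 10.08, 8.93, 6.67 and 4.79. Sirpb1a, an activating signal-regulatory receptor, read 8.98, 7.87, 6.56 and 5.43 (-2.44). Rcbtb2 read 8.83, 7.81, 6.28 and 5.40 (-2.40, probeset mean -1.03). These 3 fell in every interval. In others the fall was over by 4 h: Slc46a3, a lysosomal transporter, read 7.81, 5.56, 3.90 and 3.94 (-1.62), and Cdo1, the cysteine dioxygenase, read 7.75, 6.57, 4.79 and 4.84 (-1.73). St6gal1, a sialyltransferase, read 8.27, 7.22, 5.63 and 5.27 (-1.95, probeset mean -0.88).

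Receptors of myeloid cells changed in both directions. Paired and lectin-type receptor genes formed a list drawn up after values were seen. Of 27 measured, 10 (37.0%) were at least 2-fold higher at 8 h and 5 (18.5%) lower, beside 4.24% and 2.77% of all genes. Beside Siglece, Pilra and Pilrb1, the higher ones included Trem3, with 3.21, 3.26, 3.99 and 5.32 (2.06), its neighbour Treml4, with 4.39, 4.69, 5.36 and 6.47 (1.78), and Clec4n, the receptor Dectin-2, with 6.86, 6.44, 6.59 and 7.95 (1.51). Clec4n gained nearly all of this after 4 h. The lower ones beside Sirpb1a were Trem1, an amplifier of inflammation, with 3.22, 5.99, 5.25 and 4.55 (-1.43), Trem2 (-1.06; -0.03 without probesets that may cross-hybridise), Cd300a (-1.05) and Siglecf (-1.02). Macrophage identity genes had 1 of 23 higher, the phosphatidylserine receptor Timd4 (4.17, 4.85, 5.12 and 6.41), and 3 lower: the complement gene C1qc (-1.19), the mannose receptor Mrc1 (-1.12) and Trem2. Of 23 lysosome and phagocytosis genes, the proton pump subunit Atp6v0d2 alone differed by 2-fold (-1.11).

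A few surface ligands for T cells also parted, while most genes of their list were within 2-fold. Of 24 genes of antigen presentation and costimulation, 2 (8.33%) were higher and 2 (8.33%) lower, beside 4.24% and 2.77% of all genes. The other 20 were within 2-fold, among them Cd80 (-0.52), Cd86 (-0.47) and Icosl (-0.11). In all, 9 of the 24 read higher at 8 h. The higher ones were the neighbours Cd274, which encodes PD-L1, with 9.81, 9.33, 10.84 and 11.12 (1.79), and Pdcd1lg2, which encodes PD-L2, with 4.86, 3.93, 5.02 and 5.91 (1.98). The lower ones were Cd83 and the costimulator Cd40, with 5.71, 10.54, 9.99 and 8.95 (-1.59; -0.86 without probesets that may cross-hybridise). Both ligands of the inhibitory receptor PD-1 were higher at 8 h than at 2 h, while both activation markers were lower and Cd40 remained well above 0 h.

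The same late phase in the knockouts was set beside the wild type. These arrays share no sample with the wild-type ones, and each is again 1 array per time. In the IRAK2 knockout 376 genes (3.35%) were at least 2-fold higher at 8 h than at 2 h and 346 (3.09%) lower. In the double knockout 382 (3.41%) were higher and 197 (1.76%) lower. Across the 11215 genes, which are not independent replicates, the wild-type difference had a Pearson correlation of 0.768 with that of the IRAK2 knockout and 0.453 with that of the double knockout. No value here uses the 0 h double-knockout array, which lies apart from the other 11.

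The 8 h minus 2 h changes of the recovering and decaying genes were the ones most often seen again. The counts below score this difference alone, without the 2 h minus 0 h step that the patterns also need. With that step, 120 recovering and 112 decaying genes had the same pattern in the IRAK2 knockout. Of the 209 recovering genes, 147 were at least 2-fold higher at 8 h in the IRAK2 knockout and 80 in the double knockout, and of the 139 decaying genes, 120 and 56 were at least 2-fold lower. Median differences for decay were -1.43 in wild type, -1.58 in the IRAK2 knockout and -0.84 in the double knockout. Of the 243 late-rise genes, 87 were at least 2-fold higher at 8 h in the IRAK2 knockout and 40 in the double knockout. Of the 147 late-fall genes, 72 and 18 were at least 2-fold lower. Of the 23 genes that kept rising in wild type, 10 were at least 2-fold higher at 8 h in the IRAK2 knockout and 3 in the double knockout, where the median differences were 0.90 and 0.17 beside 1.50 in wild type. Of the 25 that kept falling, 9 and 2 were lower, with medians of -0.90 and -0.08 beside -1.48. The genes were chosen on the wild-type arrays, so medians nearer to 0 on other arrays cannot be told apart from an effect of that choice, and no test of the difference between genotypes is possible with 1 array each.

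**Figure D5:**
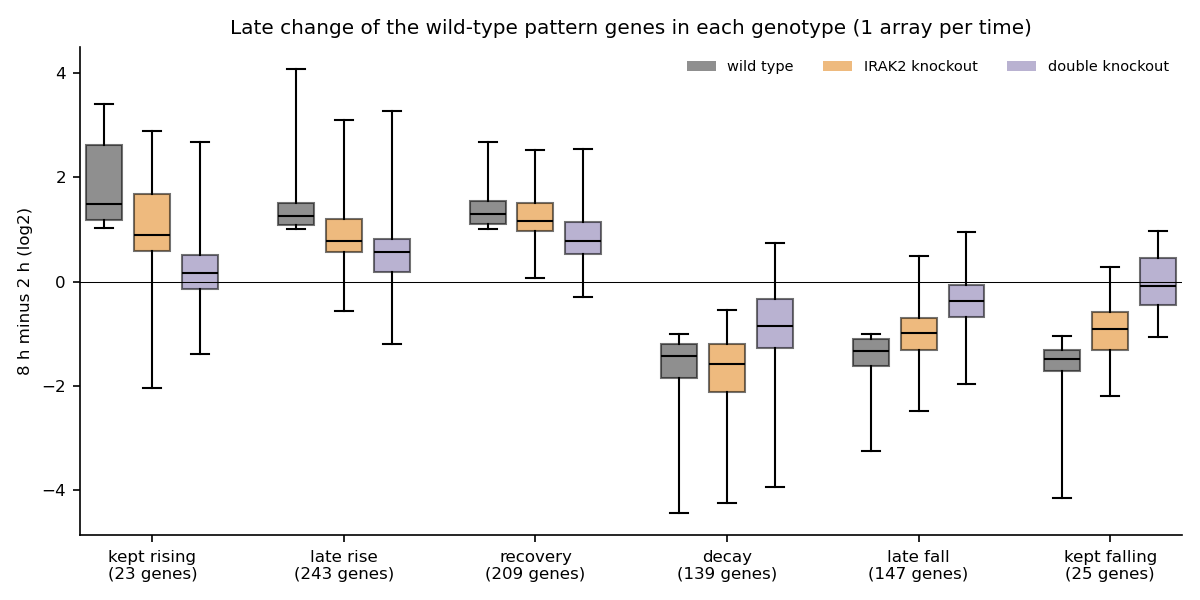
The vertical axis gives the 8 h minus 2 h difference (log2) of the genes of each wild-type pattern in wild type, the IRAK2 knockout and the double knockout. Boxes span the quartiles, lines are medians and whiskers reach the lowest and highest gene: the median of the kept-rising genes is 1.50 in wild type, 0.90 in the IRAK2 knockout and 0.17 in the double knockout, and that of the decaying genes is -1.43, -1.58 and -0.84.

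Single genes of the kept-rising pattern ranged widely. Clmp had differences of 2.79 in wild type, 2.76 in the IRAK2 knockout and 2.56 in the double knockout, and Cfb had 3.40, 2.89 and 2.67. Marco had 3.40, 1.93 and 0.57 in the same order, and Lox had 3.23, 2.47 and 0.04. Il6 read 8.98 at 8 h and 6.36 at 2 h in wild type, and 3.75 at 8 h and 5.79 at 2 h in the IRAK2 knockout. In the double knockout it read 3.63 at 8 h and 3.93 at 2 h. Both knockout levels at 8 h were under the floor. Among late risers Hp had differences of 2.81, 2.99 and 3.27, whereas Wfdc21 had 4.07, 1.71 and 0.10. Among decaying genes Cd83 had -3.36, -4.03 and -3.13, and Tslp had -4.44, -4.25 and -0.82, its 2 h level being 7.94 in wild type, 7.34 in the IRAK2 knockout and 4.21 in the double knockout. Genes sustained in wild type need not be so elsewhere: Il1b differed by -0.04 in wild type, -3.76 in the IRAK2 knockout and -2.06 in the double knockout, and Cxcl1 by 0.28, -2.80 and -3.28.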

How the data were processed

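The values deposited by the authors are log2 levels of 45101 probesets on each of 12 Affymetrix arrays. They were made with RMA, per the submitters' processing notes (version not given in the sources used here). RMA equalises the distributions of the arrays, so a shift shared by all transcripts would not show. Trizol RNA and the NuGEN Ovation label were used, per the labels.

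Of the probesets, 34958 carried 1 gene symbol, 932 several and 9211 none; only those with 1 were used, with symbols updated by gene identifier for 34754. A gene was read from its probeset with the highest mean over the 11 arrays other than the double-knockout 0 h array. The floor was the median of all values of these arrays. Differences of single arrays were counted at 2-fold, and each gene was put in a time pattern by 2 h minus 0 h and 8 h minus 2 h. No test was run, since each group is 1 array, and the number of arrays limits the precision.

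Named genes were the 10 with the largest difference per pattern, up to 5 per direction from each of 32 gene lists, and 5 sustained high and 5 sustained low genes, 320 in all. The patterns, lists and rule were chosen with earlier results of these data known, and 2 of the lists after the values themselves were seen. The counting steps were tested on simulated data. Alternatives were the mean over probesets, leaving out probesets ending in _x_at or _s_at (which may cross-hybridise), a floor 1 log2 higher, no floor, probesets chosen over all 12 arrays, arrays centred on their medians, a 4-fold bound and the 4 h array in place of the 2 h array. Promoters and gene names came from RefSeq tables of GRCm38.p6. Python 3.11.15, numpy 2.4.6 and pandas 2.3.3 were used.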

Additional observations from a re-analysis of the deposited data

Results flagged for a closer look

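In total 4 genes differed by at least 2-fold between 8 h and 2 h in opposite directions between wild type and a knockout. Each genotype is 1 array per time, so these differences were not tested. The difference for Il6 was 2.61 in wild type, against -2.04 for macrophages lacking IRAK2. Its IRAK2 knockout level at 8 h, 3.75, was under the floor, so that the size of this fall is a lower limit. For Il12a the difference was 1.65 in wild type, against -1.25 in the IRAK2 knockout. Lmo4, a LIM domain transcription regulator, had 1.20 in wild type and -1.38 in the double knockout. Glrx, a glutaredoxin, had 1.07 in wild type and -1.19 in the double knockout. In all 4 the knockout and wild-type levels were closer at 2 h than at 8 h, which picking genes by opposite changes makes likely. Il12a, for example, read 8.28 at 8 h and 6.63 at 2 h in wild type, beside 5.05 at 8 h and 6.30 at 2 h in the IRAK2 knockout.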

How the results depend on the processing

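No paired analysis was possible because each group is 1 array. For the same reason, no spread between mice or cultures is known, and differences near 2-fold cannot be told from array error. Averaging all probesets of a gene gave 257 genes at least 2-fold higher at 8 h, with 137 in the late rise, 98 in the recovery, 90 in the late fall, 13 kept falling and 367 sustained low, against 475, 243, 209, 147, 25 and 608 with the brightest probeset. That average includes probesets near background. At 4-fold, 42 genes were higher and 50 lower, with 3 kept rising, 35 in the late rise, 4 in the recovery, 21 in the decay, 29 in the late fall, 0 kept falling, 185 sustained high and 105 sustained low. With the 4 h array in place of the 2 h array, chosen after seeing the data, 70 genes were higher and 58 lower, with 32 in the late rise, 16 in the recovery, 27 in the decay, 20 in the late fall and 11 kept falling. With a floor 1 log2 higher, the median was 1.09 for B cell markers (0.18 otherwise), -1.02 for eosinophil and mast cell markers (-0.30) and -0.71 for dendritic cell markers (0.04); fewer markers were then measured. Choosing probesets over all 12 arrays, centring each array on its median and using no floor were also tried and moved no count by over 1.5-fold. List medians were recomputed under these, the probeset alternatives and the higher floor: the other 188 values moved by less than 1.5-fold. Named genes were recomputed under the probeset choices and the centring, where 1226 values moved by less than 1.5-fold, 50 moved further and no difference of 2-fold or more changed sign. Against the 4 h array, Slco3a1 at 8 h was at -0.36 and Usp2 at -0.34, the opposite sign to their difference from 2 h.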

Other observations

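Among 6658 pairs of neighbouring measured genes, 22 were both at least 2-fold higher at 8 h, 10 both lower and 11 in opposite directions, where 4.24% of all genes were higher and 2.77% lower. Whether neighbours go together more often than other genes was not tested. The pairs that were higher included Cd274 with Pdcd1lg2, Pilra with Pilrb1, Oasl2 with Oasl1, Trem3 with Treml4, Wfdc18 with Wfdc21, Rnf144a with Rsad2, and the run of Gimap8, Gimap9 and Gimap4, GTPases of lymphocyte survival. Those that were lower included Slfn2 with Slfn1, Cd83 with Jarid2, and the heat-shock genes Hspa1b with Hspa1a. Near-identical copies such as Hspa1a and Hspa1b, and related genes such as Pilra and Pilrb1 or the Slfn genes, may share probes. Their values may therefore not be independent.

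A few transcripts left their course at 4 h alone. For 12 genes whose 2 h and 8 h values were within 2-fold, the 4 h value lay at least 2-fold beyond both on the same side. Atxn1 read 7.33, 6.65, 8.27 and 6.85 at 0, 2, 4 and 8 h, and Arhgap24, a brake on Rac, read 7.05, 6.14, 4.39 and 5.44. Rb1, the retinoblastoma gene, read 9.09, 8.25, 7.06 and 8.13. Among changed genes, Fry read 10.92, 10.59, 6.95 and 8.63. Each of these excursions is a single array.

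Of 5115 genes with more than 1 measured probeset, only Ola1 had probesets at least 2-fold apart from 0 in opposite directions. Of the 155 named genes with more than 1, 29 had a probeset of the opposite sign, and only 1, Ndufs4, had one opposite by at least 2-fold.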
